A study of Mus musculus with 6 samples.

Results

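Of the 230 regions that the authors' deposited table lists as differentially methylated at CpGs, 4 lie at the imprinted genes Peg10, Peg3 and H19 and at Dppa3, a gene that guards methylation in the early embryo. They were picked by position and with the deposited levels of the same contrast in view, so those levels are described here and not tested. The samples were CA1, a field of the hippocampus, from 3 Neil3 knockout mice (genotype N3 -/-, NEIL3 being a DNA glycosylase of base excision repair) and 3 wild type mice, all males on the C57Bl6 background, 3 to 6 months old. Both groups came straight from the home cage with no intervention, and the labels do not say how the Neil3 allele was made. CA1 was cut from 8 µm frozen sections by laser, and methylation was read by whole-genome bisulfite sequencing, which turns unmethylated cytosine into uracil. The table gives 1 mean level per group, so there is no value per animal, no spread and no coverage. Which mean is wild type is known only from the title of the sheet (wt_vs_N3). No expression was measured in these files, so the CA1 label could not be checked against marker genes. In the 3 listed regions inside Neil3 the authors' means were 0.00347 to 0.695 in knockout CA1, against 0.845 to 0.909 in wild type CA1, which does not check the knockout itself.

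Imprinted genes are expressed mainly from the copy inherited from a single parent. The copies are told apart by control regions that are methylated in the egg or in the sperm, and this mark is kept through the divisions of the embryo and in adult tissue. Such a region is methylated on a single parental copy, and its expected level over both copies is therefore 0.5. In the mouse the control regions of Peg10 and Peg3 carry the methylation on the maternal copy, and the one upstream of H19 carries it on the paternal copy. Dppa3, also called Stella or PGC7, encodes a protein of the mouse egg that shields methylation in the zygote, at several imprinted loci among others, from oxidation by TET3. Dppa3 itself is not counted among the imprinted genes, and its start region is known to be methylated in somatic cells. Levels here are the authors' group means, which do not separate the parental copies. How reads, CpGs and animals were combined in them is not stated. Bisulfite does not separate 5-methylcytosine from 5-hydroxymethylcytosine. CA1 tissue holds several cell types, so a changed level within cells and a changed mix of cells cannot be told apart.

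The Peg3 locus is shown by the sequence next to its region, with each CpG, the dinucleotide whose methylation was measured, in capitals. RefSeq promoter windows (GRCm38.p6, 250 bases before to 50 after a start) matched Peg3 among the 4 genes, and Peg10, H19 and Dppa3 were not matched. The Peg3 window lies on the minus strand at chr7:6730370-6730669, 107 bases beyond the upper end of the listed region, and is therefore flanking sequence and not the region itself.
Peg3: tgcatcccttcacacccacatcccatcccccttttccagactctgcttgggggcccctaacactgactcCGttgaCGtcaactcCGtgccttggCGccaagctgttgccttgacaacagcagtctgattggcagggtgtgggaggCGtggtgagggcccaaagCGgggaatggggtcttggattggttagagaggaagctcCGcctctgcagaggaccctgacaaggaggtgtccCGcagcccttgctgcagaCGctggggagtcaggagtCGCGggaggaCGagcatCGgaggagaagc
This window holds 13 CpGs. Over the 32851 windows of the same length of 300 bases the median was 7, and 62.1% of them held fewer than 13. The window of Usp29, a gene for a ubiquitin-specific peptidase that is read in the opposite direction, shares 263 of these bases, holds 17 CpGs and begins 70 bases from the region. The letters TGCCGC, bound by the imprint-keeping factor ZFP57, were found 0 times in both windows on either strand, and 11.6% of all windows held them. The letters GCCATNTT, a core of YY1 sites, were also found 0 times in both, and 6.05% of all windows held them. These matches say only what letters stand in these windows. Neither motif contains the other.

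Peg10 was lower in the knockout by 0.148 of the methylation level. It encodes a protein derived from a retrotransposon that the mouse placenta needs, and it is expressed from the paternal copy. The region at chr6:4747293-4747624 held 53 CpGs, and the authors' mean was 0.337 in knockout CA1, against 0.485 in wild type CA1. The knockout level was thus 69.5% of the wild type level (q = 1.51e-06 in the authors' deposited table). This stretch covered the annotated start of Peg10 at 4747306, reaching from 13 bases before it to 318 bases after it. The upper bound of Sgce, which encodes epsilon-sarcoglycan and is also expressed from the paternal copy, lay 89 bases from the region on the other side. No listed region lay nearer to it on chromosome 6 than one 5.94 Mb away, where the authors' mean was 0.751 in the knockout and 0.927 in wild type.

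Peg3 gave nearly the same pair of levels. It encodes a zinc finger protein, is expressed from the paternal copy and affects growth and maternal care in mice. The region at chr7:6729846-6730263 held 41 CpGs, with an authors' mean of 0.349 in knockout CA1, against 0.508 in wild type CA1. The difference of -0.16 left 68.6% of the wild type level (q = 1.69e-07 in the authors' deposited table). This stretch lay inside Peg3, from 199 to 616 bases after the upper bound of the gene in the RefSeq table, at 6730462, which is taken as its start. From the start at 6730419, on which the promoter window printed above is built and which the authors' gene table also gives, it lay 156 bases away. It lay 296 bases from the bound of Usp29. The neighbouring imprinted gene Zim1, expressed from the maternal copy, lay 33.3 kb away and Zim2 67.5 kb away, and neither held a listed region within 5 kb.

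H19 is a long noncoding RNA expressed from the maternal copy and the host of the microRNA Mir675. Between H19 and the growth factor gene Igf2 lies a control region that binds CTCF when unmethylated and sets which of the 2 genes is active on each copy. The listed region at chr7:142580747-142581071 lay on that upstream side, 2601 to 2925 bases before the H19 start and 69.7 kb from Igf2. It held 22 CpGs, the fewest of the 4, and had an authors' mean of 0.369 in knockout CA1, against 0.503 in wild type CA1. The difference of -0.13 was the smallest of the 4 and left 73.3% of the wild type level. Its q of 0.00428 in the authors' deposited table was also the weakest of the 4, at place 189 of the 230 when q-values are ordered from the smallest. Like Peg10 and Peg3, which are methylated on the maternal copy, this region of paternal methylation was lower in the knockout. The parental copies were not measured apart. Nothing is read from the shared direction, because the regions were chosen with this contrast known.

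Dppa3 had the largest difference of the 4. The region at chr6:122627432-122627770 held 26 CpGs, and the authors' mean was 0.320 in knockout CA1, against 0.559 in wild type CA1. The difference of -0.24 left 57.3% of the wild type level (q = 1.25e-06 in the authors' deposited table). It lay inside Dppa3, 1008 bases after its RefSeq start, and 679 bases from the nearest of the 2 starts that the authors' gene table gives. Around it lie Gdf3, a growth factor of the TGF-beta family, at 17.3 kb, and Apobec1, a cytidine deaminase, at 24.4 kb. The pluripotency factor Nanog lay 79.7 kb away, and none of these 3 genes held a listed region within 5 kb. The wild type mean at Dppa3 stood 0.0587 above 0.5, and whether it differs from those of the imprinted regions was not tested.

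**Figure D1:**
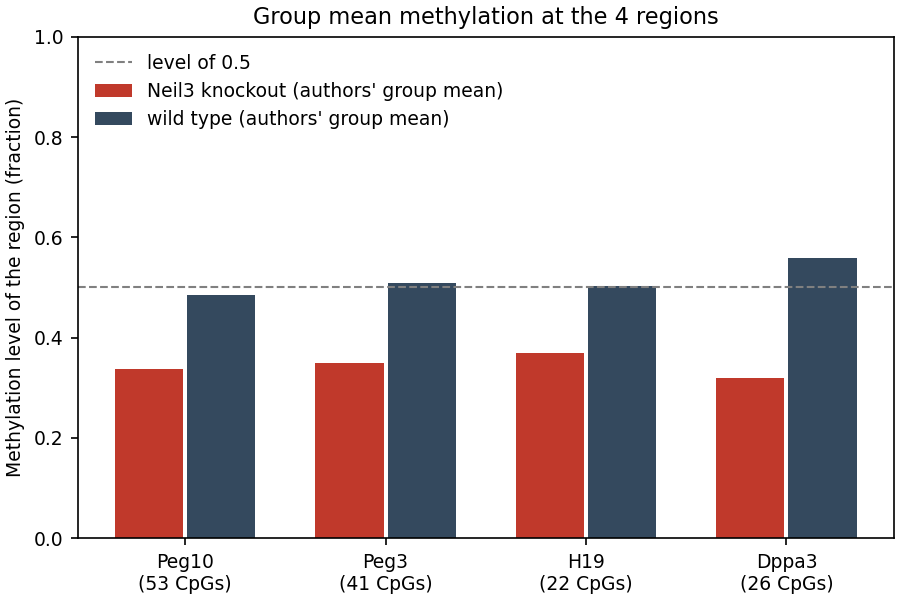
Group mean methylation (fraction, 0 to 1) at the 4 regions, with Neil3 knockout bars in red and wild type bars in dark blue, and a dashed line at 0.5. Single means without error bars are shown because no values per animal were used. The knockout bars lie between 0.320 and 0.369, all below the line, and the wild type bars between 0.485 and 0.559.

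Against the level of 0.5, the imprinted regions stood 0.163 (Peg10), 0.151 (Peg3) and 0.131 (H19) below it in knockout CA1. In wild type CA1 they stood within 0.0149 of it, with Peg10 just below and H19 and Peg3 just above. The wild type levels of H19, Peg3 and Peg10 were at places 2, 4 and 6 by closeness to 0.5 among the 230 regions, and that of Dppa3 was at place 16. The 3 imprinted regions averaged 0.352 in the knockout and 0.499 in wild type. Without coverage or animals it cannot be said how far these means could move by sampling, and whether 0.337, 0.349 and 0.369 differ among themselves was not tested.

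All 4 regions were lower in the knockout, beside 70.4% of the 230 listed regions by the group means, and 44.6% of the 112 listed regions outside chromosome 8, which carries Neil3. Nothing is read from this count, because the members were chosen with this contrast known. The sizes of the 4 differences, 0.134 to 0.239, were small within the list. Among the 112 regions outside chromosome 8, Dppa3 was at place 80 by size, Peg3 at 96, Peg10 at 99 and H19 at 104. The median size of difference over these 112 was 0.391. The listed regions just smaller than H19 in size were in Eml1 (0.134), near Tubg1 (0.130) and in Acnat1 (0.126), and those just larger had sizes of 0.137, 0.143 and 0.145. By the difference of the group means, as used for these places, the smallest size in the list was 0.0227. By the deposited difference column it was 0.101, and the largest q was 0.0475.

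**Figure D2:**
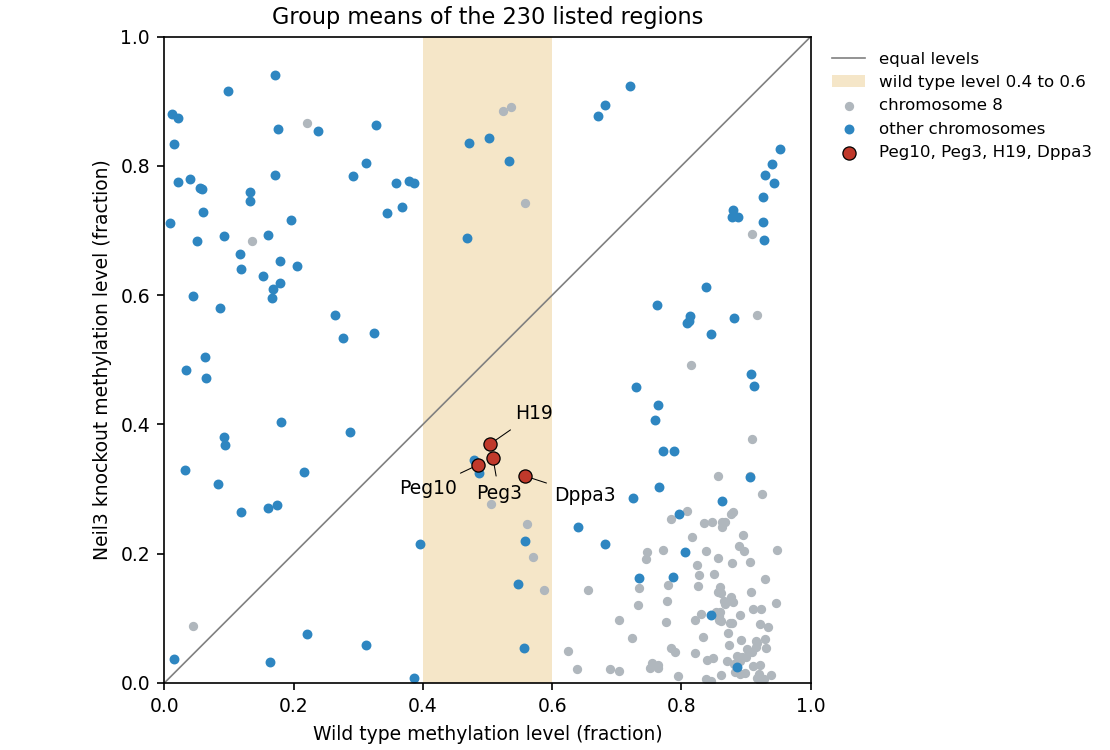
Each point is 1 of the 230 listed regions, with the wild type level on the horizontal axis and the Neil3 knockout level on the vertical axis (fractions). Grey points are on chromosome 8, blue points on other chromosomes, red points are Peg10, Peg3, H19 and Dppa3, and the shaded band marks wild type levels of 0.4 to 0.6. The red points lie together below the diagonal inside the band.

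The 4 regions were alike in length, from 324 to 417 bp, where the median of the 112 regions outside chromosome 8 was 417.5 bp. They differed in CpG density, taken as the authors' number of CpGs over the length. Whether that number counts each CpG once or on both strands is not stated. Numbers and densities of CpGs are therefore compared only within the list. Peg10 was dense, with 16.0 CpGs per 100 bp, at place 9 of the 112 from the top. Peg3 had 9.83 and Dppa3 7.69 CpGs per 100 bp, and H19 had 6.79, where the median of the 112 was 8.83. The largest difference, at Dppa3, and the smallest, at H19, thus belonged to the 2 regions of lower density. The authors' second table, a list of 36 genes, holds Peg10, Peg3 and Dppa3 but not H19.

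**Figure D3:**
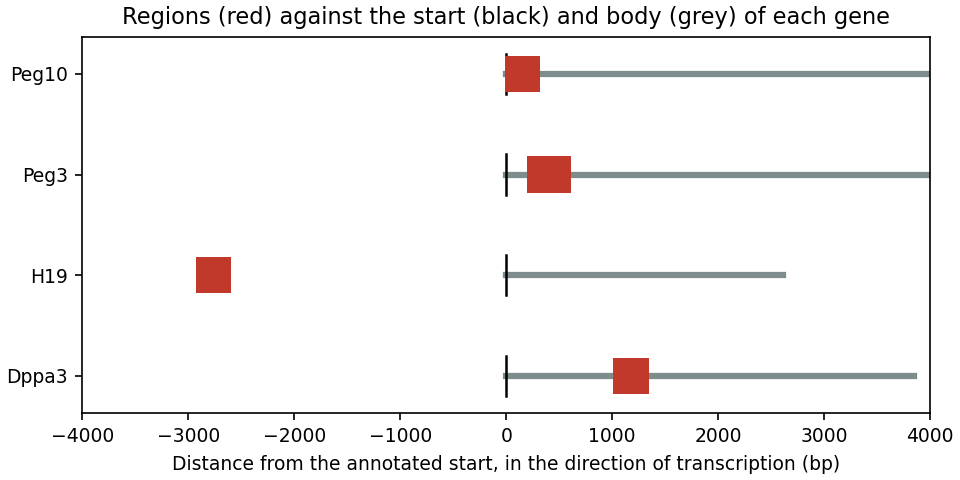
Position of each region (red block) in bp from the start of its gene taken from the RefSeq bounds (black tick, 0), in the direction of transcription, with the gene body in grey and cut at 4000 bp. Peg10's region covers the start, those of Peg3 and Dppa3 lie inside the gene from 199 and 1008 bp, and that of H19 lies 2601 to 2925 bp upstream.

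Most imprinted genes of the 3 lists used here had no listed region within 5 kb. Of the 71 that matched the annotation, 66 had none and 5 had a listed region inside or within 5 kb, or 7.04%, where 0.192% of the 49603 annotated genes had one, or 0.133% without chromosome 8. Inside their bounds 2 had one, Peg10 and Peg3, where 0.139% of the annotated genes had. The 5 were Peg10, Sgce, Peg3, Usp29 and H19, and they rest on 3 regions, because Peg10 shares its region with Sgce and Peg3 with Usp29. All 5 belong to the 35 genes at regions marked in the germ line, 4 among 28 of maternal and 1 among 7 of paternal methylation. None of the 36 other imprinted genes had one, and neither did Mest, Snrpn, Kcnq1ot1, Grb10, Nnat, Meg3 or Rasgrf1 of the germ line lists. At a share of 0.192%, a list of 36 genes would mostly hold none, so no contrast with the germ line lists is read from this. The list was written with earlier results on Peg10, Peg3 and H19 known, so these counts are a description. A gene without a listed region is not shown to be unchanged, since levels outside the listed regions were not analysed here.

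Among 15 genes for the protection and upkeep of imprints, Dppa3 alone had a listed region, and 14 had none, including Zfp57, Trim28, Dnmt1, Uhrf1 and Ctcf. Of 15 genes for the removal of methylation, which include Tet1, Tet2, Tet3 and Tdg, Neil3 alone had one. Neil3 is the gene that was knocked out and lies on chromosome 8, so its regions are those of the targeted locus. The 7 genes for the setting of methylation, among them Dnmt3a and Dnmt3l, had 0 within 5 kb. The 14 genes of pluripotency and the germ line, with neighbours of Dppa3 among them, also had 0. Apobec1 is counted both in that list and among the genes for the removal of methylation. Beside these counts, 0.192% of all annotated genes had a listed region within 5 kb, so lists this short would hold about 0 at that share, and nothing is read from the empty ones. The regions of Dppa3 and Neil3 were known when the lists were written.

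A wild type level of 0.4 to 0.6 was uncommon in the list, with 20 of the 230 regions (8.70%), the 4 described here among them. Of the 20, 13 had the lower level in the knockout (65.0%) and 7 the higher one. On the autosomes other than chromosome 8, 7 further regions began at this level, and 3 of them were lower and 4 higher. A wild type level near 0.5 therefore went with both directions in the list. The nearest listed region to Peg3, at chr7:6189401-6189823 in the zinc finger gene Zfp444, was among the higher ones. It lay 0.540 Mb from the Peg3 region and had authors' means of 0.688 in the knockout and 0.468 in wild type (q = 7.02e-13 in the authors' deposited table).

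**Figure D4:**
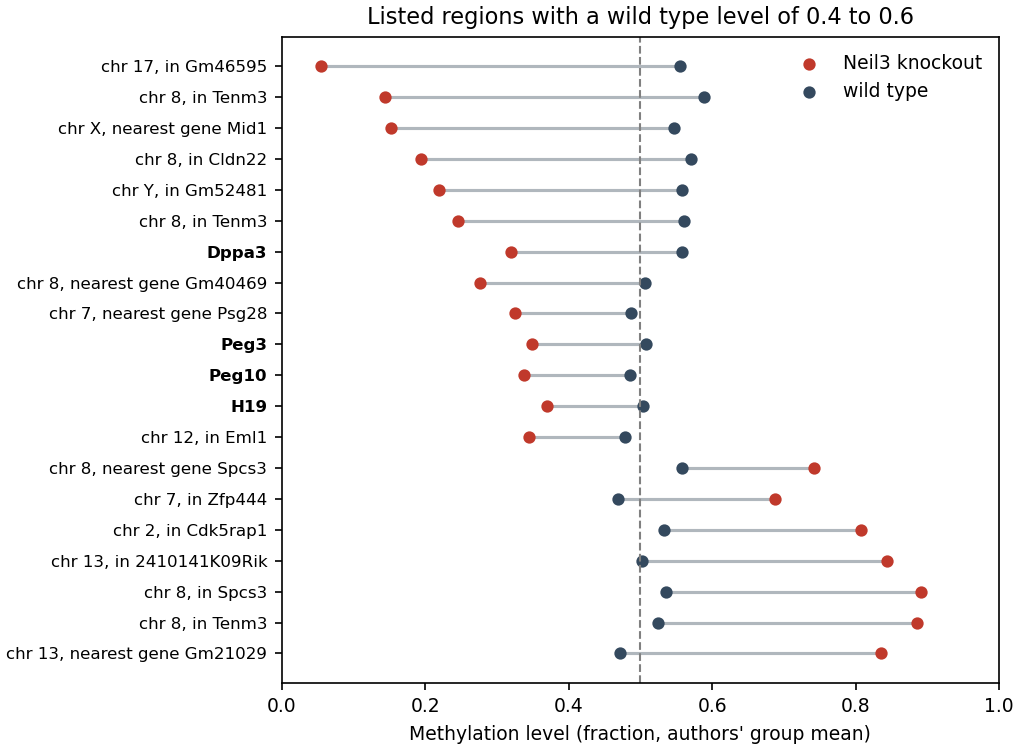
The 20 listed regions with a wild type level of 0.4 to 0.6, ordered by the difference, with Neil3 knockout means as red points and wild type means as dark blue points (fraction). The dashed line marks 0.5, and 13 regions have the knockout point to the left and 7 to the right of the wild type point.

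Apart from the 4, the listed region whose pair of levels was most like the average of the 3 imprinted regions was in Eml1, a gene for a microtubule-binding protein. Likeness was the straight-line distance between pairs of group means, and it was 0.0213 for Eml1. That region, at chr12:108509031-108509365, had authors' means of 0.345 in the knockout and 0.479 in wild type (q = 0.00694 in the authors' deposited table). Second, at a distance of 0.0296, came chr7:18403072-18404131, with authors' means of 0.325 in the knockout and 0.487 in wild type. It overlapped no annotated gene, and the nearest was Psg28 at 18405 bp. For comparison, Dppa3 stood at 0.0677 from that average, farther than both. The other 3 were a region of chromosome 8 near Gm40469 (0.0757), a region in Tenm3 (0.123) and one in Gm52481 on the Y chromosome (0.145), and all had lower knockout means than the imprinted regions.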

How the data were processed

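The submitters' processing notes name BSMAP, a bisulfite read aligner, and the genome build GRCm38 (mm10). For the calling of regions, its coverage minimum and the adjustment of q-values, the method was not given in the sources used here. In their table the authors deposited a mean methylation fraction per group, a q-value, the number of CpGs and a difference of means for each of 230 regions, and no depth, so no interval or floor is given. Fragments averaged about 250 bp, per the labels' protocols. Instrument and age are not given per animal, so batches could not be examined. The GC content in percent of the deposited gene table was not used.

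The difference was computed as the knockout minus the wild type mean. The deposited column runs the other way, and after turning its sign it matched within 0.001 in 213 of 230 regions and in all 4 described here. Regions were placed on RefSeq gene bounds of GRCm38.p6, without exons or introns, and genes annotated below 3 Mb were left out, except on the Y chromosome. Strands came from the deposited starts, and for H19 from Mir675 inside it. Bounds may be off by 1 base, since the counting base of the positions (0 or 1) is not stated. Of 72 imprinted genes written down, 71 matched. Python 3.11.15, pandas 2.3.3 and numpy 2.4.6 were used. The overlap counting was tested on simulated regions in genes far from other genes and in wide gaps between genes. Regions shared by neighbouring genes, as at Peg10 and Sgce, were not part of that test. The members and gene lists were chosen with earlier results of these data known. Regions were named if they were members, lay within 5 kb of a listed gene, were next to a member on its chromosome, had the most similar pair of means, or were next to the smallest member in size. The regions in the closing observations were named after their values were seen. No test was run, because the only values are 1 mean per group.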

Additional observations from a re-analysis of the deposited data

How the results depend on the processing

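The 4 differences kept their direction and value when the deposited difference column replaced the difference of the means. The count of 20 regions with a wild type level within 0.1 of 0.5 was 13 within 0.05, and 11 on the autosomes without chromosome 8, while the count of 13 lower ones was 7 in both settings. The wider window of 0.15, a q of at most 0.01 and at least 20 CpGs kept both counts within 1.5 times. The count of 5 imprinted genes was 2 when only regions inside the gene bounds were taken, and 4 or 5 under the other settings. With starts from the deposited gene table the distance was 156 bp at Peg3 and 679 bp at Dppa3. No paired analysis was possible because the files hold no values per animal, and leaving out each replicate was not run for the same reason. The depth behind every level is unknown, so the differences have no error.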

Other observations

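Several other listed regions began at a level near 0.5 in wild type CA1 and lay on chromosomes with imprinted genes. Their distances to the genes of the lists follow. The distances of listed regions with other wild type levels were not taken, so closeness to imprinted genes was not tested. The region in Eml1 on chromosome 12 lay 0.943 Mb from Dlk1, a paternally expressed gene of the Dlk1 and Meg3 cluster, and the region in Zfp444 lay 0.462 Mb from Zim2. The region in Cdk5rap1, at chr2:154354541-154355143, lay 1.65 Mb from H13 and had authors' means of 0.808 in the knockout and 0.533 in wild type. The region near Psg28 lay 11.4 Mb from the nearest imprinted gene of the lists, Zim3. The others were farther from any gene of the lists, with the region in Gm46595 at 58.1 Mb, the one near Mid1 at 66.5 Mb and the 7 on chromosome 8 at 68.3 to 102 Mb.

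Among the regions of this wild type level, the largest difference was in the predicted gene Gm46595 on chromosome 17, with authors' means of 0.0546 in the knockout and 0.556 in wild type. On chromosome 13, the region in 2410141K09Rik had authors' means of 0.844 in the knockout and 0.502 in wild type. That wild type level was nearer to 0.5 than at any of Peg10, Peg3, H19 and Dppa3, and its knockout level was higher, not lower. Beside Mid1, which in mice spans the pseudoautosomal boundary, the authors' means were 0.153 in the knockout and 0.546 in wild type. Read mapping was not analysed here, so the X and Y copies of such sequence cannot be told apart.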
